A study of Rattus norvegicus with 16 samples.

Results

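Pnpla3 and the enzymes that assemble and break down triglyceride were measured in rat liver on 4 diets. The group held 10 genes, chosen by name: Gpam, Lpin1, Lpin2, Dgat1, Dgat2, Mogat2, Pnpla3, Abhd5, Lipe and Mgll. They were chosen with earlier results of these data known, so their counts beside the shares of all genes are descriptions. A probe set counted for a gene if it was paired with exactly 1 gene symbol and that symbol, current or older, was the gene's. This gave 166 probe sets for the 10 genes, which are 10 of the 14839 genes named on the array. Dim probe sets were left out: 143 of the 166 had a mean over the 16 arrays of at least 6.01 (log2 intensity), the 75th percentile of the array, and were kept. All 10 genes had at least 1 kept probe set and so were among the 12156 genes tested.

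The animals were female Sprague-Dawley rats, 5 weeks of age, and every group ate Teklad mash (4%). Control received no compound, and the labels state no feeding period for it. The other groups were fed a compound for 7 days: UAB30 at 200 ppm, MeUAB30 at 200 ppm, or Targretin, the trade name of bexarotene, at 150 ppm. All of them are rexinoids, synthetic ligands of the retinoid X receptors, and MeUAB30 is UAB30 with a methyl group added, by the name 4-methyl-UAB30 in the study's title. Each group had 4 arrays of liver RNA. The labels do not say whether the 4 came from separate animals or from pools, so a p-value measures only the spread between these arrays, which may be technical.

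Liver makes triglyceride by adding fatty acids to glycerol 3-phosphate, removing the phosphate and adding a last fatty acid to diacylglycerol. The product is stored in lipid droplets or secreted in lipoproteins, and lipases of the droplet surface take it apart again. Retinoid X receptors pair with other nuclear receptors, among them the liver X receptors and the peroxisome proliferator-activated receptors, which regulate many genes of lipid metabolism.

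Array medians lay between intensities of 22.2 and 23.8, and no pair of the 16 arrays held identical values. The array least like the other 3 of its diet was Control 3, UAB30 3, MeUAB30 1 and Targretin 2, with mean correlations with their own group of 0.925, 0.961, 0.963 and 0.929. Of these, 2 stood clearly apart: Control 3 lay 0.029 and Targretin 2 0.028 under the next lowest of their diet, while UAB30 3 and MeUAB30 1 lay 0.006 and 0.002 under it. Among the 10 genes, MeUAB30 1 gave the lowest value of its diet for 8, Control 3 for 6, UAB30 3 for 5 and Targretin 2 for 4. Results are given with all 16 arrays, and without these 4, or without Control 3 and Targretin 2 only, where that changed a call. Levels are log2 intensities of a gene's kept probe sets summarised by median polish. A change is the difference of 2 group means on that log2 scale, given with its standard error (SE). Rose, fell and passed refer to an adjusted p (limma, Benjamini-Hochberg over all 12156 genes) under 0.05. For probe sets the adjustment ran over the 103692 kept probe sets. In alternatives with another filter or pseudocount it ran over the genes or probe sets tested there. In bulk liver RNA, fewer cells of a type and less RNA per cell cannot be told apart.

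With Targretin, 4 of the 10 genes rose against Control and none fell, where 2.18% of all 12156 genes passed in either direction and 1.51% rose. With intensity range as a covariate 5 of the 10 passed, and the balance over all genes turned: 10.6% passed, 3.24% upward and 7.35% downward. The 4 were Pnpla3, Dgat2, Lpin2 and Gpam. The median change over the 10 genes was 0.62, beside -0.01 over all genes tested, and 9 of the 10 changes were positive. In these same 4 genes the 4 Targretin arrays did not overlap the 4 Control arrays, which held for 5.33% of all genes. At an unadjusted p under 0.05 there were 6 of the 10, and 10.9% of all genes.

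With MeUAB30, 1 of the 10 genes, Dgat2, rose against Control, where 9.89% of all genes passed, 7.88% upward and 2.01% downward. That share is close to the background, and the median change of the 10 genes was 0.16 beside 0.06 over all genes. Groups did not overlap for 2 of the 10 genes, Dgat1 and Dgat2, and for 14.4% of all genes. At an unadjusted p under 0.05 there were 4 of the 10, and 23.2% of all genes. With the 4 least alike arrays left out, 4 of the 10 passed, Pnpla3, Lpin2, Dgat1 and Dgat2, all upward, but 20.1% of all genes passed in that fit, 12.3% upward. Without Control 3 and Targretin 2 only, 2 passed, Pnpla3 and Dgat1, where 19.4% of all genes passed.

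With UAB30, limma called 0 of the 10 genes against Control, where 0.0823% of all genes passed (0.074% upward and 0.00823% downward, a balance that did not hold without the 4 least alike arrays, 16 of 31 upward, or without Control 3 and Targretin 2 only, 14 of 40 upward), and 0 of their probe sets, where 0.0357% of all probe sets passed. At an unadjusted p under 0.05 there were 2, Lpin1 and Lpin2, and 7.83% of all genes. The median change was 0.15 beside 0.05 over all genes, and all 10 changes were positive. Most genes tested also changed upward: Lipe, at 0.002, ranked 7388 of 12156 by increase. The sign turned in some of 19 alternative settings for Lipe (7), Gpam (4), Dgat2 (2), Mogat2 (1) and Abhd5 (1). Lpin2 alone had groups that did not overlap, as 3.4% of all genes did, and it was the 1 gene that passed without the 4 least alike arrays (change 0.58, adjusted p = 0.0318), where 0.255% of all genes passed. Without Control 3 and Targretin 2 only, limma called 0 of the 10.

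**Figure D1:**
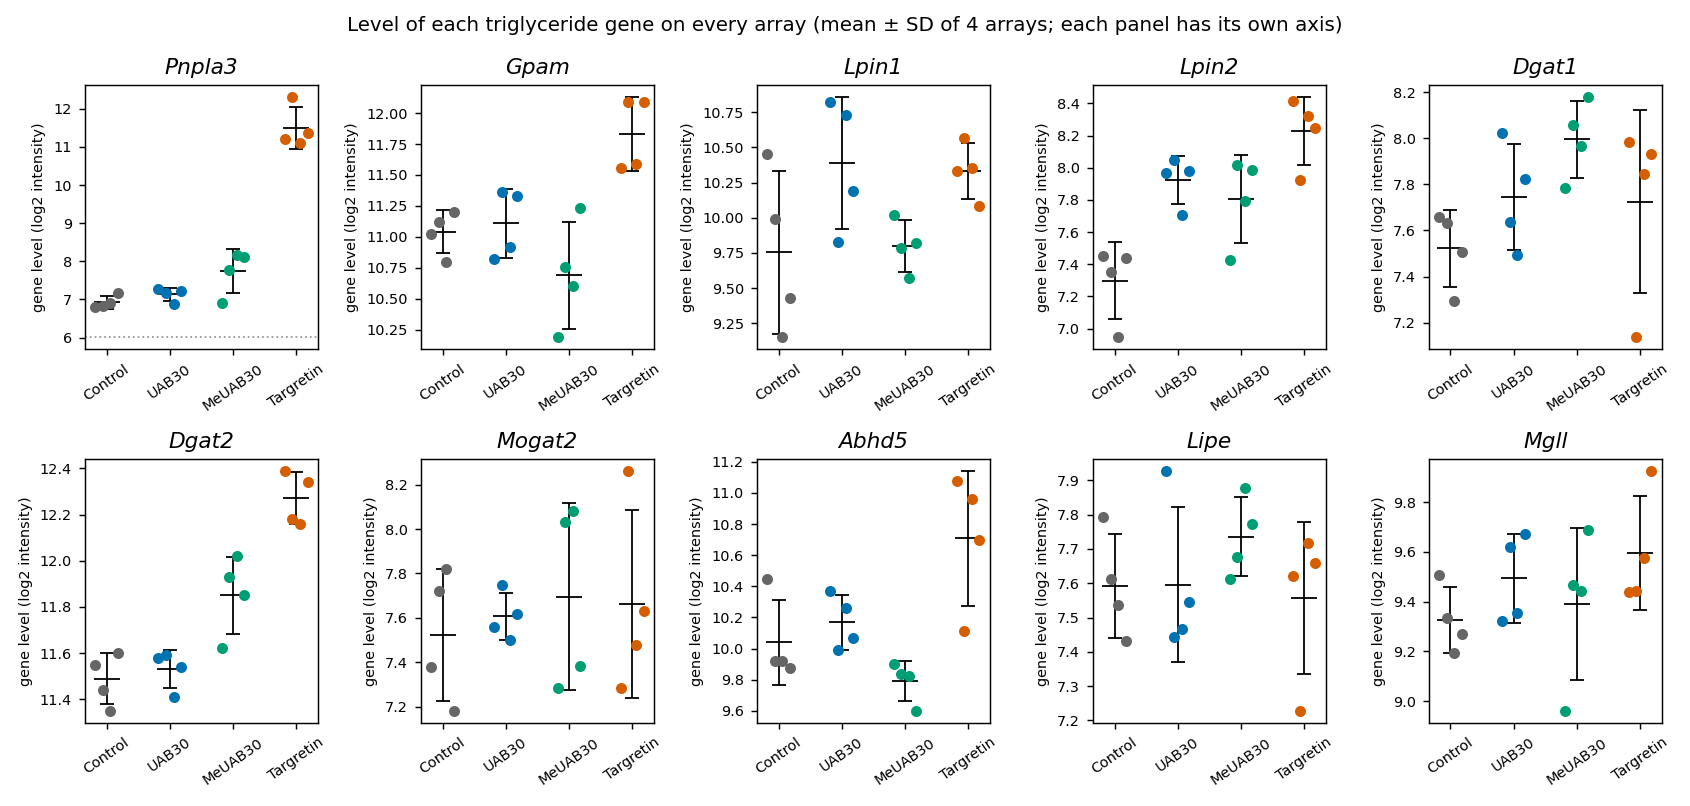
Log2 intensity of each of the 10 genes on every array (points) by diet, with the mean and SD of the 4 arrays; each panel has its own axis, and the dotted line under Pnpla3 is the filter on dim probe sets (6.01). Pnpla3 lies between 11.10 and 12.31 with Targretin and no higher than 8.16 on any other array, while Lipe and Mogat2 overlap in every pair of diets.

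Pnpla3 encodes a protein of the lipid droplet with triglyceride lipase and acyl transfer activity, best known from a human variant linked to fatty liver, and in mouse liver it is induced by refeeding. Its level was 6.81, 6.83, 6.90 and 7.18 on the 4 Control arrays and 7.27, 7.16, 6.88 and 7.21 on the 4 UAB30 arrays. It was 6.91, 7.78, 8.16 and 8.12 on the MeUAB30 arrays and 11.22, 12.31, 11.10 and 11.36 on the Targretin arrays. All Targretin arrays lay far above all others, and MeUAB30 1 lay among the Control arrays while the other 3 MeUAB30 arrays lay above every Control and UAB30 array. The change with Targretin against Control was 4.57 (SE 0.26, adjusted p = 2.12e-08), 23.7-fold on the scale of log2(intensity + 1), and it ranked 1 of 12156 by p and by size of increase. It passed in all 20 alternative settings, between 4.06 and 4.70. Of its 13 kept probe sets, 3 had a Control mean under the filter on dim probe sets, and without those 3 the change was 4.29 (SE 0.25, adjusted p = 2.45e-08), 19.5-fold.

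With MeUAB30, Pnpla3 changed by 0.81 (SE 0.26), which did not pass (adjusted p = 0.0585). It lay close to the threshold and passed in 7 of 20 alternative settings, 4 of them with all 16 arrays: array weights, intensity range as a covariate, the stricter filter and probe set means (adjusted p between 0.00223 and 0.0482). In these 4 settings 22.8%, 24.9%, 12.3% and 9.33% of all genes passed, beside 9.89% in the main fit. Without MeUAB30 1 the adjusted p was 0.00699, without the 4 least alike arrays the change was 1.08 (adjusted p = 0.000379), and without Control 3 and Targretin 2 only it was 0.80 (adjusted p = 0.0261). Without the 4 least alike arrays 20.1% of all genes passed, and without Control 3 and Targretin 2 only 19.4%. With UAB30 the change was 0.20 (SE 0.26, adjusted p = 0.891), and its 95% interval ran from -0.35 to 0.75.

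The region before the start of Pnpla3 is shown because the gene had the largest increase with Targretin, and that of Mgll because it is a gene of the same set that passed in no comparison. Both are from RefSeq on the rat assembly GRCr8, on the + strand, up to the last base before the annotated gene start: chr7:117173278-117173484 (207 bases) and chr4:122749186-122749435 (250 bases). Capitals mark CCAAT boxes, which read ATTGG here because they lie on the other strand, and in Pnpla3 also the cAMP element TGACGTCA.
Pnpla3: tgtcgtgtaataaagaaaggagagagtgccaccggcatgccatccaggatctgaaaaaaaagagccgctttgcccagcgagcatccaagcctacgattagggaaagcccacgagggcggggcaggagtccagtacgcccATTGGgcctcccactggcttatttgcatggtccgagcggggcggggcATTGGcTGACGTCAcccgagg
Mgll: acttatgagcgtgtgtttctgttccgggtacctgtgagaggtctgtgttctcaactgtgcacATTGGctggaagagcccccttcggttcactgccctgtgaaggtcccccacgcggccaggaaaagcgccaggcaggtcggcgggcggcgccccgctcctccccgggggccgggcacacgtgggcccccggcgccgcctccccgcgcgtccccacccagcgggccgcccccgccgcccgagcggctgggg

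A promoter of 300 bases was found for 6 of the 10 genes: Pnpla3, Gpam, Lpin1, Lpin2, Mgll and Abhd5. Motifs were searched on both strands. CCAAT stood in 4 of the 6 windows and in 37.5% of 33469 promoter windows of that length. TGACGTCA stood in 1, that of Pnpla3, and in 1.83% of all. The E-box CACGTG stood in 1, that of Mgll, and in 6.42% of all, and the GC box GGGCGG in 3 and in 33.1%. The nuclear receptor core site AGGTCA stood in 1, that of Abhd5, and in 16.2%. None of the 6 held the sterol element TCACNCCAC (1.12% of all) or the direct repeats of AGGTCA with 1 base (0.0538%), 4 bases (0.00598%) or 5 bases (0.00896%) between the copies, each of which contains the core site. A match is a description of the letters in these windows, and the lack of one says only that the letters are not there.

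Pnpla3 was read by 14 probe sets, of which 13 were kept, and 12 of the 13 rose with Targretin against Control. Among all probe sets tested, 1.45% passed in that comparison. The 13 changes ran from 0.67 to 5.89 with a median of 4.65. In 10 of them the change was over 4, and in 3 it was under 2: 1.52, 1.49 and 0.67, the last of which did not pass (adjusted p = 0.104). The changes of 1.49 and 0.67 came from the brightest Pnpla3 probe sets of the Control arrays (8.54 and 8.73). The 3 with a Control mean under the filter were kept through their level with Targretin, so they had to differ, and the count of probe sets that rose is a description. The probe set that was not kept had a mean of 5.95 over the 16 arrays, just under the filter. With MeUAB30, 12 of the 13 changes were positive with a median of 0.95, and none passed, where 7.41% of all probe sets passed.

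For the other genes, with Targretin against Control, 11 of 14 kept probe sets of Dgat2 rose (median change 0.81), 11 of 25 of Lpin2 (0.94), 3 of 25 of Gpam (0.81) and 2 of 8 of Abhd5 (0.68). None rose or fell for Lpin1, Dgat1, Mogat2, Mgll or Lipe, although all 21 changes of Lpin1 were positive (median 0.54). With MeUAB30, 4 probe sets of Lpin2, 3 of Dgat1 and 3 of Dgat2 rose, and 1 of Gpam fell, with 23 of its 25 changes under 0. These 11 are 7.69% of the 143, close to the 7.41% of all probe sets. With UAB30 all 21 changes of Lpin1 (median 0.66) and 24 of 25 of Lpin2 (median 0.61) were positive, and none passed. Probe sets of 1 gene are read from the same RNA and are not replicates.

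**Figure D2:**
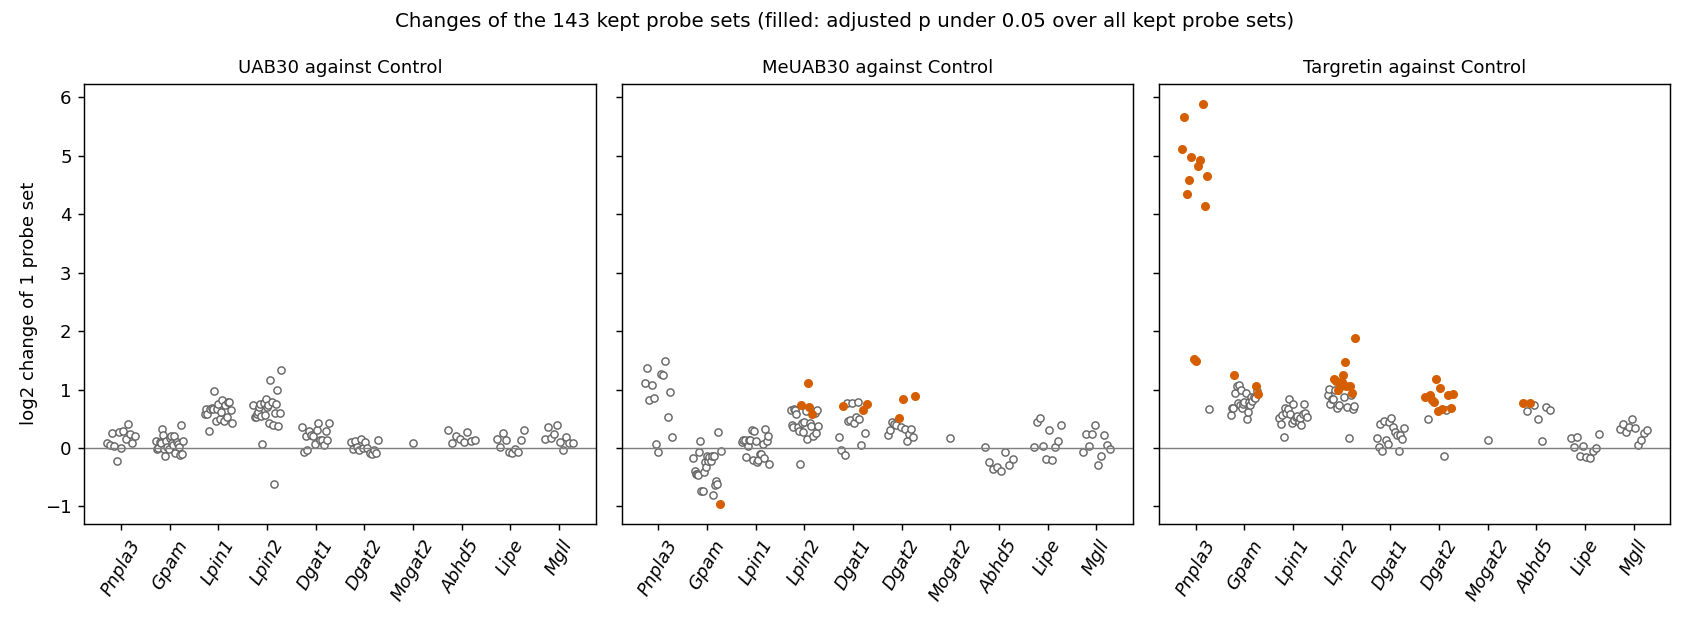
Log2 change against Control of every kept probe set of the 10 genes, 1 point each, by gene (x axis) and diet (panels), filled where the adjusted p is under 0.05. The Pnpla3 probe sets spread from 0.67 to 5.89 with Targretin, and with UAB30 no probe set is filled.

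Gpam encodes the mitochondrial glycerol-3-phosphate acyltransferase, which adds the first fatty acid. Its level was 11.02, 11.12, 10.80 and 11.20 on the Control arrays and 10.82, 11.36, 10.92 and 11.33 on the UAB30 arrays. It was 10.19, 10.76, 10.60 and 11.23 with MeUAB30 and 11.56, 12.09, 11.59 and 12.09 with Targretin. The Targretin arrays lay above all others, and the other 3 diets overlapped. The Targretin change against Control was 0.80 (SE 0.20, adjusted p = 0.0471). This call sat at the threshold, and the change passed in 7 of 19 alternative settings. The call was lost on leaving out any 1 of 7 of the 8 arrays (adjusted p up to 0.167, without Targretin 4). It was also lost with no filter, with quantile normalization or with only the 2 groups compared (adjusted p between 0.0533 and 0.0683). The change was 0.63 without the 4 least alike arrays (adjusted p = 0.0993) and without Control 3 and Targretin 2 only (adjusted p = 0.177). With MeUAB30 the change was -0.34 (SE 0.20, adjusted p = 0.342), and with UAB30 it was 0.07 (SE 0.20, adjusted p = 0.958).

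Lpin1 and Lpin2 encode lipins, phosphatidate phosphatases that make diacylglycerol, and lipin 1 also acts as a coactivator in the nucleus. The level of Lpin2 was 7.45, 7.35, 6.95 and 7.44 on the Control arrays and 7.97, 8.05, 7.71 and 7.98 on the UAB30 arrays. It was 7.43, 8.02, 7.80 and 7.98 with MeUAB30 and 8.42, 7.93, 8.32 and 8.25 with Targretin. All UAB30 and all Targretin arrays lay above every Control array, as did the MeUAB30 arrays except MeUAB30 1. The change against Control was 0.93 with Targretin (SE 0.16, adjusted p = 0.00241), which passed in all 19 alternative settings. With UAB30 it was 0.63 (SE 0.16, adjusted p = 0.245), and with MeUAB30 0.51 (SE 0.16, adjusted p = 0.0502). Neither passed, and the MeUAB30 change passed in 7 of the 19 alternative settings. Among these were array weights, the fit without the 4 least alike arrays and intensity range, where 22.8%, 20.1% and 24.9% of all genes passed.

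Lpin1 varied more within diets. It read 10.45, 9.99, 9.15 and 9.43 on the Control arrays, an SD of 0.58, and 10.82, 9.83, 10.73 and 10.19 with UAB30. It read 10.02, 9.78, 9.57 and 9.82 with MeUAB30 and 10.33, 10.57, 10.35 and 10.08 with Targretin. Control overlapped every other diet. The changes against Control were 0.64 with UAB30 (SE 0.25, adjusted p = 0.525), 0.58 with Targretin (adjusted p = 0.374) and 0.04 with MeUAB30 (adjusted p = 0.951), and none passed.

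Dgat1 and Dgat2 encode diacylglycerol acyltransferases of different protein families that catalyse the same last step, and Dgat2 is the one tied to newly made fatty acids. Dgat2 read 11.55, 11.44, 11.35 and 11.60 on the Control arrays and 11.58, 11.59, 11.41 and 11.54 with UAB30. It read 11.62, 11.93, 12.02 and 11.85 with MeUAB30 and 12.39, 12.18, 12.16 and 12.34 with Targretin. The diets formed steps that did not overlap: Control and UAB30 together, then MeUAB30, then Targretin. The change with Targretin against Control was 0.78 (SE 0.11, adjusted p = 0.000703), and it passed in all 19 alternative settings. The change with MeUAB30 was 0.37 (SE 0.11, adjusted p = 0.0489). That call was lost on leaving out any 1 of 7 of the 8 arrays, with an adjusted p of up to 0.16 without MeUAB30 3, and without Control 3 and Targretin 2 (adjusted p = 0.051). With UAB30 the change was 0.04 (SE 0.11), with a 95% interval from -0.20 to 0.28.

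Dgat1 read 7.66, 7.63, 7.29 and 7.51 on the Control arrays and 8.02, 7.64, 7.49 and 7.82 with UAB30. It read 7.78, 8.06, 7.97 and 8.18 with MeUAB30 and 7.98, 7.14, 7.85 and 7.93 with Targretin. All MeUAB30 arrays lay above all Control arrays, and Targretin 2 was the lowest of the 16. The change with MeUAB30 was 0.47 (SE 0.18) and did not pass (adjusted p = 0.103). It passed in 4 of 19 alternative settings (adjusted p up to 0.231), and in 0 of 8 fits that left out 1 array. It passed without the 4 least alike arrays (0.47, adjusted p = 0.013), where 20.1% of all genes passed. It also passed without Control 3 and Targretin 2 only (0.40, adjusted p = 0.0427), where 19.4% of all genes passed. The changes with Targretin, 0.20 (adjusted p = 0.818), and with UAB30, 0.22 (adjusted p = 0.822), did not pass.

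Mogat2 encodes monoacylglycerol acyltransferase 2, best known from the intestine, and lies beside Dgat2 on chromosome 1 of GRCr8, with 0 annotated genes between them. Only 1 of its 8 probe sets was kept, so its value rests on that one. Its group means ran from 7.52 with Control to 7.70 with MeUAB30, and its changes against Control were 0.08 with UAB30, 0.17 with MeUAB30 and 0.14 with Targretin. None passed, and the arrays of all diets overlapped. Its neighbour Dgat2 rose in the same comparison with Targretin.

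Of the genes for breakdown, Abhd5 encodes the coactivator of adipose triglyceride lipase (CGI-58). It read 10.45, 9.92, 9.92 and 9.88 on the Control arrays and 10.37, 9.99, 10.26 and 10.07 with UAB30. It read 9.90, 9.84, 9.83 and 9.60 with MeUAB30 and 11.08, 10.11, 10.96 and 10.70 with Targretin. Of the Targretin arrays 3 lay above all arrays of the other diets, and Targretin 2 lay among them. The change with Targretin against Control was 0.67 (SE 0.19) and did not pass (adjusted p = 0.0796). It passed without Targretin 2 (adjusted p = 0.004) and without Control 1 (adjusted p = 0.0412). It was 0.83 without the 4 least alike arrays (adjusted p = 0.0157) and without Control 3 and Targretin 2 only (adjusted p = 0.0112). With the replicate number as a block it also passed (adjusted p = 0.0367). In all, it passed in 7 of 19 alternative settings, with an adjusted p of up to 0.322. Of the 8 fits that left out 1 array, 2 passed, with an adjusted p of up to 0.245 without Targretin 3.

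Lipe encodes hormone-sensitive lipase, which acts on diacylglycerol, and Mgll encodes monoacylglycerol lipase. The group means of Lipe lay between 7.56 and 7.74, and its changes against Control were 0.00 with UAB30, 0.14 with MeUAB30 and -0.04 with Targretin. Those of Mgll lay between 9.33 and 9.60, with changes of 0.17, 0.06 and 0.27 in the same order. Neither gene passed in any of the 6 comparisons. The 95% interval with Targretin ran from -0.33 to 0.26 for Lipe and from -0.06 to 0.60 for Mgll.

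**Figure D3:**
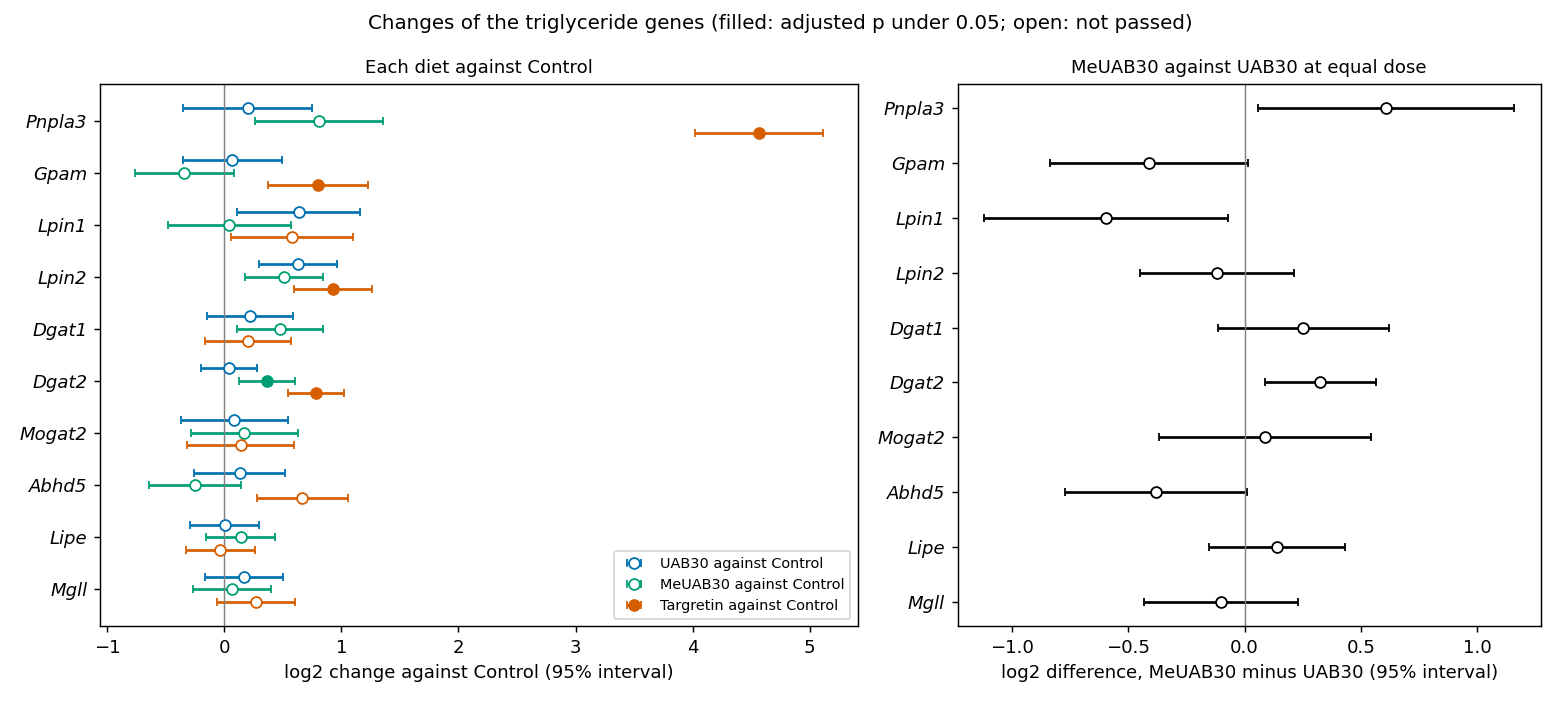
Log2 change of each of the 10 genes with its 95% interval, for the 3 diets with a compound against Control (left) and for MeUAB30 against UAB30 (right), filled where the adjusted p is under 0.05. With Targretin the change of Pnpla3 is 4.57 and those of Gpam, Lpin2 and Dgat2 lie between 0.78 and 0.93, with UAB30 no change exceeds 0.64, and no point on the right is filled.

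MeUAB30 and UAB30 shared dose and feeding time, so this pair alone compares analogs at a matched dose, here with the methyl group and without it. Limma called 0 of the 10 genes between them, where 1.39% of all genes passed, 0.699% higher and 0.691% lower with MeUAB30. At an unadjusted p under 0.05 there were 3, Pnpla3, Dgat2 and Lpin1, and 11.3% of all genes. Of the 143 kept probe sets of the 10 genes, 1 passed, a Dgat2 probe set that was higher with MeUAB30. Of all probe sets 0.872% passed. Pnpla3 was 0.61 higher with MeUAB30 (95% interval 0.06 to 1.16, adjusted p = 0.359). Without the 4 least alike arrays that difference was 0.80 and passed (adjusted p = 0.00651), the only 1 of the 10 to do so, where 2.78% of all genes passed. Without Control 3 and Targretin 2 only, 0 of the 10 passed. Dgat2 was 0.33 higher (0.09 to 0.57, adjusted p = 0.223), with no overlap between the 2 diets. Groups did not overlap for 2 of the 10 genes, Dgat2 and Abhd5, and for 8.31% of all genes.

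On the other side, Lpin1 changed by -0.60 with MeUAB30 against UAB30 (-1.12 to -0.07, adjusted p = 0.345). Gpam changed by -0.41 (-0.84 to 0.01, adjusted p = 0.462), with all 25 of its probe sets under 0. Abhd5 changed by -0.38 (-0.77 to 0.01, adjusted p = 0.458). The interval of Lpin2 was -0.45 to 0.21, that of Dgat1 -0.12 to 0.62, that of Mogat2 -0.37 to 0.55, that of Mgll -0.43 to 0.23 and that of Lipe -0.16 to 0.43. A p that misses the threshold does not show that the analogs act alike.

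Targretin was fed at 150 ppm and the other compounds at 200 ppm, so the next comparisons are of these diets and not of compounds at 1 dose. Against MeUAB30, 4 of the 10 genes were higher with Targretin and none lower, where 5.63% of all genes passed, 1.72% higher and 3.91% lower. That balance turned without the 4 least alike arrays, where 693 of 1260 called genes (55%) were higher. Arrays did not overlap for 5 of the 10, those 4 and Lpin1, and for 13.1% of all genes, and 6 of the 10 had an unadjusted p under 0.05, as 19.4% of all genes did. Pnpla3 was 3.76 higher (SE 0.26, adjusted p = 2.46e-07) and Gpam 1.14 higher (SE 0.20, adjusted p = 0.00237), with 24 of 25 Gpam probe sets passing, where 4.88% of all probe sets passed. Abhd5 was 0.92 higher (SE 0.19, adjusted p = 0.00678). Those 3 passed in every alternative setting run. Dgat2 was 0.41 higher (SE 0.11, adjusted p = 0.0417), a call lost on leaving out any 1 of 7 of the 8 arrays (adjusted p up to 0.109). Lpin2 was 0.42 higher and did not pass (SE 0.16, adjusted p = 0.134), though it passed in 4 of 19 alternative settings. Without the 4 least alike arrays it was 0.40 higher (adjusted p = 0.0226), where 10.4% of all genes passed. Without Control 3 and Targretin 2 only it was 0.52 higher (adjusted p = 0.0245), where 10.2% of all genes passed.

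Against UAB30, 2 of the 10 genes were higher with Targretin and none lower, where 1.23% of all genes passed and 0.625% were higher. Arrays did not overlap for 3 of the 10, Pnpla3, Gpam and Dgat2, and for 6.75% of all genes, and 4 of the 10 had an unadjusted p under 0.05, as 8.89% of all genes did. Pnpla3 was 4.37 higher (SE 0.26, adjusted p = 4.44e-08) and Dgat2 0.74 higher (SE 0.11, adjusted p = 0.00191), and both passed in every alternative setting run. Of the 143 kept probe sets of the 10 genes, 20 passed, all higher with Targretin, where 0.769% of all probe sets passed. Gpam was 0.73 higher and did not pass (adjusted p = 0.117). Abhd5 was 0.54 higher (adjusted p = 0.278), and it passed without the 4 least alike arrays (0.77, adjusted p = 0.0405) and without Control 3 and Targretin 2 only (0.74, adjusted p = 0.0189). The 3 comparisons with Targretin share its 4 arrays, and the 3 with Control share the Control arrays.

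Beside the 10 genes, 55 other genes of the pathway were listed, and 44 of them were tested. The lists too were made with earlier results of these data known, so counts among the 44 are descriptions. With Targretin against Control 4 rose and 2 fell, where 1.51% of all genes rose and 0.666% fell. Leaving out 1 array gave 5 to 8 calls, and without the 4 least alike arrays 8 rose and 2 fell, where 2.76% of all genes rose and 1.31% fell. There were 3 calls with only the 2 groups compared, 13 with array weights and 15 with intensity range. Of all genes 0.946%, 6.26% and 10.6% passed in these settings. In the supply of glycerol 3-phosphate and acyl-CoA, 2 of 7 tested genes rose and 1 fell. Gpd1, the cytosolic glycerol-3-phosphate dehydrogenase, rose by 0.92 (adjusted p = 0.000919) and Acsl5, an acyl-CoA synthetase, by 0.53 (adjusted p = 0.00586). Gk, glycerol kinase, fell by 1.08 (adjusted p = 0.000345). In lipolysis, 1 of 12 rose and 1 fell: Ces1d, a carboxylesterase with triglyceride hydrolase activity, rose by 0.87 (adjusted p = 0.016), and Lipa, the lysosomal acid lipase, fell by 0.62 (adjusted p = 0.0133). Of 9 tested regulators only Srebf1, which encodes a transcription factor of fatty acid synthesis genes, rose (1.27, adjusted p = 0.00479). None of 5 other acyltransferases, 4 other phosphatases or 7 enzymes of the branches to phospholipid passed. The Ces1d call was lost without Control 4, Targretin 1 or Targretin 4 (adjusted p up to 0.0685), and the Lipa call without Control 1 (adjusted p = 0.053).

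With MeUAB30 against Control, 0 of the 44 rose and 3 fell, where 7.88% of all genes rose and 2.01% fell. Leaving out 1 array gave 1 call (without Control 1) to 7 (without Control 3, all of genes that fell, among them Gk, Acsl3 and Ppara), and without the 4 least alike arrays 3 rose and 10 fell, where 12.3% of all genes rose and 7.79% fell. There were 17 calls with array weights and 16 with intensity range, where 22.8% and 24.9% of all genes passed. Lipa fell by 0.86 (adjusted p = 0.000496), Agpat3, an acyltransferase that acts on lysophosphatidic acid, fell by 0.61 (adjusted p = 0.0145), and Acsl4, an acyl-CoA synthetase with a preference for arachidonic acid, fell by 0.40 (adjusted p = 0.0438). The Agpat3 call was lost without Control 1 (adjusted p = 0.0544), and the Acsl4 call on leaving out any 1 of 7 of the 8 arrays (adjusted p up to 0.117). With UAB30 against Control limma called 0 of the 44, also on leaving out any 1 array. Between MeUAB30 and UAB30 none of the 44 was higher and 2 were lower with MeUAB30, where 0.699% of all genes were higher and 0.691% lower, and without the 4 least alike arrays 4 were lower, where 1.28% of all genes were. Array weights gave 10 calls and intensity range 11, where 11% and 5.97% of all genes passed. Lipa was lower with MeUAB30, by -0.68 (adjusted p = 0.00974), a call lost on leaving out either of 2 arrays (adjusted p up to 0.0511, without UAB30 4). Ppargc1a, a coactivator of fasting genes, was lower by -0.86 (adjusted p = 0.0298), a call lost in 6 of 8 such fits (adjusted p up to 0.114).

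**Figure D4:**
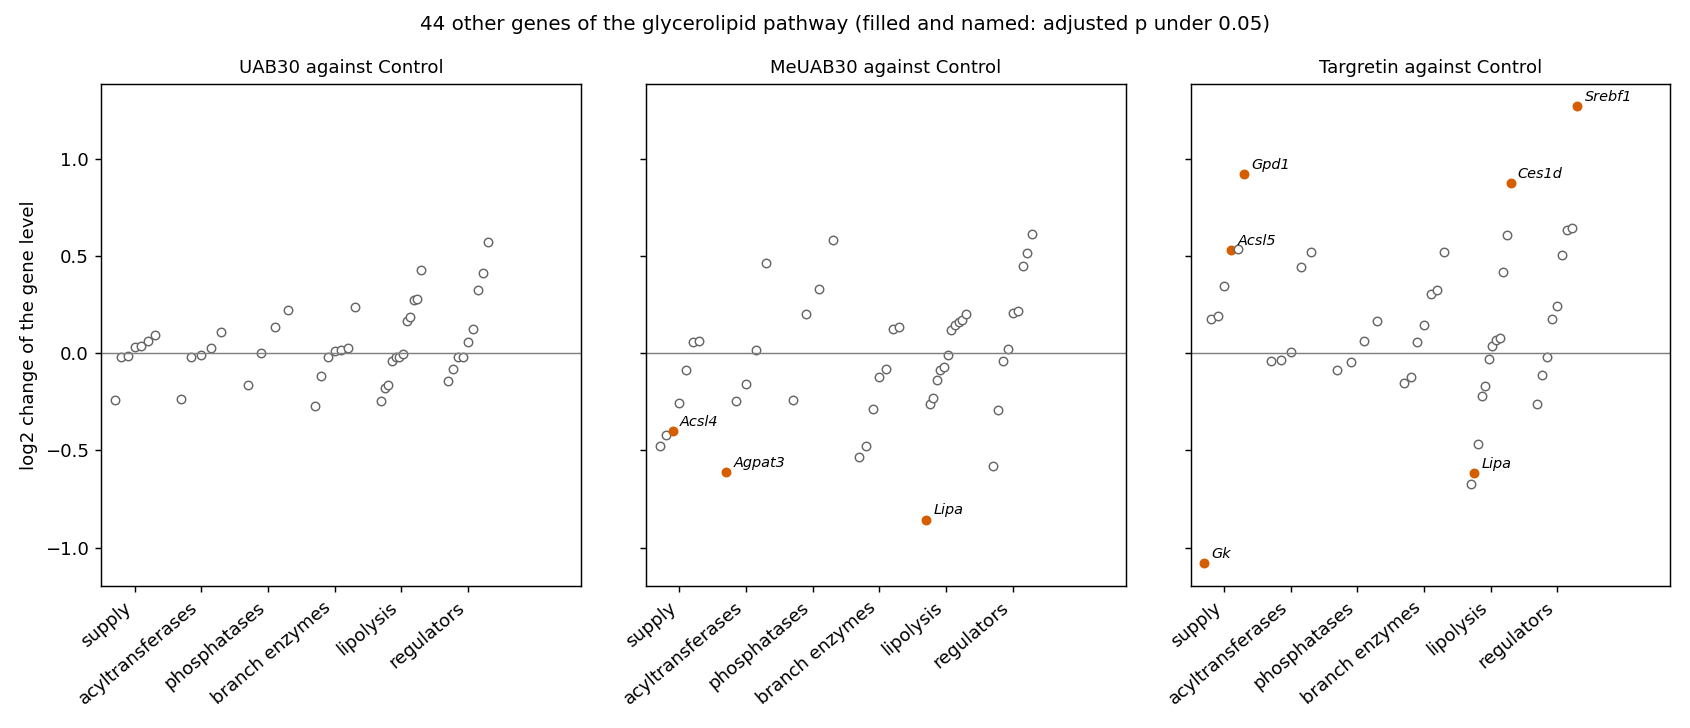
Log2 change against Control of the 44 tested genes of the pathway lists, 1 point each, by list (x axis) and diet (panels), filled and named where they passed. With Targretin Srebf1, Gpd1, Ces1d and Acsl5 rose and Gk and Lipa fell.

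The 5 genes whose values over the 16 arrays were most like those of Pnpla3 were Ehhadh (Pearson r = 0.957), Acot2 (0.947), Acsl5 (0.946), Acaa1b (0.934) and Elovl6 (0.929). These r are descriptions: the 4 Targretin arrays stand far from the other 12 for Pnpla3, so each r rests mainly on that gap. Ehhadh and Acaa1b encode enzymes of peroxisomal β-oxidation, Acot2 a mitochondrial acyl-CoA thioesterase and Elovl6 a fatty acid elongase. With Targretin against Control they changed by 1.48 (Ehhadh), 2.38 (Acot2), 2.21 (Acaa1b) and 2.58 (Elovl6), which the choice by likeness to Pnpla3 itself brings about, so these changes are given with no test. For Dgat2 the most alike were Acly (0.960) and Elovl6 (0.947), for Gpam Mal2 (0.909) and Xpnpep2 (0.895), for Lpin2 C8h11orf54 (0.917) and Idh2 (0.908), and for Abhd5 Polg (0.916) and Pank1 (0.889). For Dgat1 they were Fars2 (0.982) and Ndufv3 (0.981), and for Lipe Reep5 (0.922) and Itm2c (0.916). For Mgll they were Pdxkl1 (0.876) and Tcp11l1 (0.855), for Lpin1 Acsm1 (0.811) and Erbb3 (0.801), and for Mogat2 Tpsab1 (0.807) and Mmp3 (0.806).

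The liver label was checked against cell type markers. The summed intensity of 6 tested hepatocyte markers of 8 listed lay between 59970 and 63980 on the Control arrays, 60630 and 63440 with UAB30, 53980 and 55070 with MeUAB30 and 56170 and 63680 with Targretin. The MeUAB30 arrays thus lay under all others in this sum, which the brightest markers carry, and the markers did not move together. With MeUAB30 against Control Cps1 changed by -0.57 (adjusted p = 0.00136) and Apob by -0.34 (adjusted p = 0.0469), while Asgr1 changed by 0.70 (adjusted p = 0.00564) and read 11.39 to 11.66 beside 10.75 to 10.99 with Control. For 5 tested adipocyte markers of 7 listed, the sum was 733.9 to 1111 with Control, 913.5 to 1004 with UAB30, 882.6 to 1080 with MeUAB30 and 881.5 to 969.4 with Targretin, which all overlap, and the defining marker Adipoq lay under the filter (mean 4.17). For 6 tested stellate cell markers of 8 listed, the sum was 1348 to 2071 with Control, 1454 to 1552 with UAB30, 1871 to 2171 with MeUAB30 and 881.3 to 1481 with Targretin. The MeUAB30 range lay above those of UAB30 and Targretin, but the markers did not move together. The marker that moved most, Lrat, had means of 8.81, 8.25, 9.65 and 8.06 in the same order of diets. From UAB30 to MeUAB30 the mean of Dcn went from 7.06 to 7.38 and that of Col1a2 from 8.55 to 8.625. Those of Hgf (7.624 to 7.235), Des (6.775 to 6.694) and Reln (8.492 to 8.463) went down. Against Control, 3 of the 6 changes were positive with MeUAB30 and 0 with Targretin. For 7 tested Kupffer cell and macrophage markers of 8 listed, it was 2095 to 4106 with Control, 3095 to 5262 with UAB30, 3321 to 4166 with MeUAB30 and 2283 to 4812 with Targretin. For 3 tested endothelial cell markers of 7 listed, it was 637.5 to 995.3 with Control, 700.3 to 915.6 with UAB30, 868.7 to 1274 with MeUAB30 and 520.8 to 1020 with Targretin. The 4 tested cholangiocyte markers of 6 listed summed to 391.1 to 462.9, 383 to 452.4, 420.6 to 490.4 and 406.6 to 473.6 in the same order of diets. The part of these cell types in the results was not tested.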

How the data were processed

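Liver RNA of 16 samples was measured on 16 exon arrays, 4 per diet. The deposited values were 1 linear intensity per probe set and array, made by the authors. Probe summary, background correction and normalization between arrays are steps not given in the sources used here. Per the submitters' processing notes the build was rn4, while gene names and promoters come from RefSeq tables of GRCr8, so no probe set coordinates are given. Columns of other samples numbered 0.

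The platform annotation paired 177688 of 887828 probe sets with exactly 1 symbol. Intensities were transformed as log2(intensity + 1), which understates changes of dim genes. Probe sets with a mean of at least 6.01 on that log2 scale were kept (103692), a cut-off that stands for an intensity of 63.6. Genes were summarised by median polish. A model with 1 mean per diet was fitted in limma 3.58.1 to the 16 arrays in R 4.3.3 (lmFit, eBayes), with Benjamini-Hochberg adjustment within each of 6 contrasts and a threshold of 0.05. All adjusted p-values come from this model or its alternatives. It was checked on simulated data. Precision depends on the number of arrays, since intensities carry no counts, and the standard errors of the log2 differences had a median of 0.166.

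Alternatives were a larger pseudocount, 2 other filters, probe set means, quantile normalization, array weights, a fit of only the groups compared, a replicate block and leaving out each array. Leaving out the array of each diet least like its group, or only Control 3 and Targretin 2, intensity range as a covariate, and Pnpla3 without the probe sets dim in Control were added after seeing the data. In each comparison at most 2 of 4 pairs of same-numbered arrays deviated together with a correlation over 0.1. The correlations ran from -0.504 (Targretin against Control) to 0.574 (UAB30 against Control). With so few pairs it cannot be told whether the numbers pair the arrays. The main fit used no pairing, and the replicate block was run as an alternative. The 10 genes, the pathway and marker lists and the motifs were chosen with earlier results of these data known. All 10 genes are described. Of each pathway list up to 3 genes with the smallest adjusted p among those that passed are named, and the genes most like a member are those with the highest Pearson correlation (5 for Pnpla3, 2 for the others).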

Additional observations from a re-analysis of the deposited data

Results flagged for a closer look

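Of the 40 sets of 4 arrays (10 genes on 4 diets), 2 held an array far from the other 3, by Dixon's ratio of gap to range at the 95% level, and chance gives about 1 in 20. Dgat1 read 7.14 on Targretin 2, and the nearest Targretin array read 7.85 (ratio 0.839). Abhd5 read 10.45 on Control 1, and the nearest Control array read 9.92 (ratio 0.92).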

How the results depend on the processing

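No called change of the 10 genes turned its direction in any alternative. In Targretin against Control 3 to 4 of them passed when each array was left out in turn, and 5 with the replicate block (1.72% of all genes), beside 4. Gpam lost its call there with no filter, with quantile normalization or with only the 2 groups compared. Abhd5 gained a call with array weights or with intensity range. In MeUAB30 against Control, beside 1, 2 passed with a pseudocount of 16, with a filter at the 85th percentile, with probe set means or without Control 3 and Targretin 2 only, 4 with array weights, without the 4 least alike arrays or with intensity range as a covariate, and 0 with only the 2 groups compared or with the replicate block. Leaving out each array gave 0 to 3. In UAB30 against Control 1 passed with array weights, without the 4 arrays or with intensity range, beside 0, and 0 to 0 on leaving out each array. Of all genes 0.362%, 0.255% and 0.872% passed in those settings. In MeUAB30 against UAB30 3 passed with array weights and 1 without the 4 arrays, beside 0, and 0 to 0 on leaving out each array. Leaving out each array gave 3 to 4 in Targretin against MeUAB30 and 2 to 3 in Targretin against UAB30. The replicate block changed the calls of Abhd5 in Targretin against Control (adjusted p = 0.0367), of Gpam in Targretin against UAB30 (adjusted p = 0.0151) and of Dgat2 in MeUAB30 against Control and Targretin against MeUAB30 (adjusted p = 0.0833 and 0.0789). The cause was not tested, except that fits of only 2 groups hold fewer arrays.

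Of the 10 genes' probe sets, 39 passed in Targretin against Control (21 with only 2 groups, 24 to 43 on leaving out each array). In MeUAB30 against Control it was 11 (6 with no filter or only 2 groups, 33 with array weights, 29 without the 4 arrays, 20 with intensity range, 5 to 22). In UAB30 against Control it was 0 (2 with array weights, 3 with intensity range, 0 to 0). In MeUAB30 against UAB30 it was 1 (0 with no filter, only 2 groups or the replicate block, 18 with array weights, 10 without the 4 arrays, 3 without Control 3 and Targretin 2, 4 with intensity range, 0 to 5). In Targretin against MeUAB30 it was 46 (33 to 42), and in Targretin against UAB30 20 (31 with array weights, 13 with only 2 groups, 15 to 17). Calls over all genes rose too with array weights or without the 4 arrays.

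Over all genes, 265 passed in Targretin against Control (761 with array weights, 115 with only 2 groups, 495 without the 4 arrays, 1288 with intensity range) and 1202 in MeUAB30 against Control (2771, 2446 and 3026 with array weights, without the 4 arrays and with intensity range). In the same order of these 3 settings, 10 in UAB30 against Control became 44, 31 and 106, 169 in MeUAB30 against UAB30 became 1337, 338 and 726, and 684 in Targretin against MeUAB30 became 2127, 1260 and 2259. In Targretin against UAB30 150 became 460 with array weights, 98 with only 2 groups and 623 with intensity range. Without Control 3 and Targretin 2 only, 2356 passed in MeUAB30 and 40 in UAB30 against Control, 418 in MeUAB30 against UAB30, 1236 in Targretin against MeUAB30 and 232 in Targretin against UAB30. Leaving out 1 array gave 172 (without Targretin 4) to 402 (without Targretin 2) in Targretin against Control, 634 (without Control 4) to 1346 in MeUAB30 against Control, 4 (without Control 4) to 36 (without Control 2) in UAB30 against Control, 86 (without UAB30 2) to 166 in MeUAB30 against UAB30, 357 (without MeUAB30 2) to 667 in Targretin against MeUAB30, and 96 (without UAB30 4) to 151 in Targretin against UAB30. The share of higher genes moved by over 10 percentage points as follows: in Targretin against Control from 69.4% to 30.6% with intensity range; in MeUAB30 against Control from 79.7% to 64.4% with array weights, 61.3% without the 4 arrays and 47.0% with intensity range; in UAB30 against Control from 90% to 78.6% with quantile normalization, 65.9% with array weights, 51.6% without the 4 arrays and 50% with intensity range. In MeUAB30 against UAB30 it moved from 50.3% to 62.9% with array weights, in Targretin against MeUAB30 from 30.6% to 47.4% with array weights and 55% without the 4 arrays, and in Targretin against UAB30 from 50.7% to 61.2% with only 2 groups, 65.4% without the 4 arrays and 27.0% with intensity range. Without Control 3 and Targretin 2 only it was 54.5% in MeUAB30 and 35% in UAB30 against Control, 63.0% in Targretin against MeUAB30 and 67.7% in Targretin against UAB30.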

Other observations

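In Targretin against MeUAB30, diets of unequal dose, 11 of the 44 tested genes outside the 10 were higher with Targretin and 1 lower, where 1.72% of all genes were higher and 3.91% lower. In supply 5 of 7 were higher, led by Gpd1 (1.005, adjusted p = 0.000242), Acsl1, a main acyl-CoA synthetase of liver (0.60, adjusted p = 0.00103), and Acsl4 (0.59, adjusted p = 0.00715). The 1 lower gene was Gk (-0.66, adjusted p = 0.0122), named after its value was seen. Agpat3 was 1.06 higher (adjusted p = 0.000307). In lipolysis Abhd6, a monoacylglycerol hydrolase, was 0.84 higher (adjusted p = 0.00475) and Ces1d 0.96 higher (adjusted p = 0.00512). Among regulators Ppara, the receptor that drives fatty acid oxidation genes, was 1.22 higher (adjusted p = 0.00105) and Ppargc1a 0.80 higher (adjusted p = 0.021). The Control means lay between those of the 2 diets. Ppara read 8.29 with Control, 7.715 with MeUAB30 and 8.94 with Targretin. Ppargc1a read 6.46, 6.17 and 6.97, and 7.03 with UAB30. Neither gene passed against Control with any diet. Pcyt1a, an enzyme of phosphatidylcholine synthesis, was 0.60 higher (adjusted p = 0.0266). The Ppargc1a and Pcyt1a calls were lost in 4 and 5 of 8 fits that left out 1 array (adjusted p up to 0.0787 and 0.0869).

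In Targretin against UAB30, also of unequal dose, 5 of the 44 were higher with Targretin and 1 lower, where 0.625% of all genes were higher and 0.609% lower. Gpd1 was 0.89 higher (adjusted p = 0.00193), Srebf1 1.29 higher (adjusted p = 0.00676) and Gk lower (-0.84, adjusted p = 0.00479), and these calls held on leaving out any 1 array. Acsl5 (0.47, adjusted p = 0.0238), Agpat3 (0.68, adjusted p = 0.0282) and Pcyt1a (0.64, adjusted p = 0.0473) were also higher, calls lost in 7, 6 and 8 of 8 such fits (adjusted p up to 0.0867, 0.118 and 0.151).

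Within the Targretin diet, array 2 read highest for Pnpla3 (12.31) and lowest for Abhd5 (10.11). It was also an array that stood clearly apart from its group, and the part of this in its values was not tested.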
